A study of Mus musculus with 36 samples.

Results

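RNA was compared between plasma cells of mice that carried MMSET together with Ikk2ca and plasma cells of mice that carried MMSET alone. The comparison used the 10 libraries that the labels place in these groups, 6 labelled MMSET-Ikk2ca and 4 labelled MMSET, of 36 in the series, which models genetic forms of the plasma cell cancer multiple myeloma. Both groups belong to the MMSET (M) cohort, share the strain C57/BL6 and carry the MMSET allele, so the groups differ by the Ikk2ca allele. The plasma cells were sorted from bone marrow by CD138, TACI and, per the design text, a reporter, with 2000 cells per library. The other groups of the cohort, Control(M) and Ikk2ca(M) with 4 libraries each, gave the reference for the effect of Ikk2ca without MMSET, and the groups Ccnd1 (4) and Ccnd1-Ikk2ca (6) of the Ccnd1 (D) cohort gave the reference for its effect in a second model. The labels name no Cre driver, promoter, age, sex or animal for a library, so the p-values cover only the variation among these libraries, which may be in part technical.

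MMSET, encoded by Nsd2 in the mouse, is a histone methyltransferase that places methyl groups on lysine 36 of histone H3 and is overexpressed through a translocation in a subgroup of human myeloma. IKK2, encoded by Ikbkb, is the kinase of the IKK complex that marks IkB inhibitors for degradation, which frees NF-kB dimers such as RelA with p50 to enter the nucleus. Ikk2ca denotes a constitutively active form of this kinase. NF-kB genes encode the subunits, the inhibitors switch the response off again and are themselves targets, and other targets serve adhesion, survival and signalling to immune cells.

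The 10 libraries held 54.1 M to 70.1 M estimated reads, of which 16.2 M to 34.9 M lay outside immunoglobulin genes, and 12408 to 14045 genes had at least 10 reads. Levels are given as CPM, read counts scaled by library size times a TMM normalization factor estimated over the 18 libraries of the cohort. They are given as mean ± SD over 4 MMSET and 6 MMSET-Ikk2ca libraries. The factors ran from 0.809 to 0.908 in MMSET and from 0.972 to 1.58 in MMSET-Ikk2ca. The surface proteins of the sort were present in both groups, with Sdc1 (CD138) at 421 ± 144 CPM in MMSET and 379.9 ± 68 CPM in MMSET-Ikk2ca and Tnfrsf13b (TACI) at 212 ± 57.7 CPM in MMSET and 190.4 ± 28.5 CPM in MMSET-Ikk2ca. MMSET replicate 1 stood apart from the other 3 MMSET libraries, with a summed level of 16 neutrophil markers of 3025 CPM against 52.5 to 187 CPM. Y-linked genes exceeded 1 CPM in 3 of 6 MMSET-Ikk2ca and 0 of 4 MMSET libraries, and Xist exceeded 10 CPM in 3 of 6 and 3 of 4, so the sexes were not balanced between the groups.

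The targeted genes were read first. Ikbkb (chromosome 8, 22659212 to 22706589, GRCm38) stood at 27.2, 10.7, 15.4 and 23.9 CPM in MMSET replicates 1 to 4, and at 44.8, 58.1 and 61.8 CPM as the lowest, median and highest of MMSET-Ikk2ca. All 6 MMSET-Ikk2ca libraries lay above all 4 MMSET libraries (log2 fold change 1.52, SE 0.239, adjusted p = 0.00248, edgeR quasi-likelihood test, Benjamini-Hochberg adjusted over 15416 genes). In the groups without MMSET, Ikbkb had 27.3 ± 7.83 CPM in Control(M) and 57.7 ± 10.2 CPM in Ikk2ca(M). Nsd2 (chromosome 5, 33820725 to 33897975) stood at 850.1, 754, 439 and 517 CPM in MMSET and at 178, 299.5 and 617 CPM as the lowest, median and highest of MMSET-Ikk2ca. The groups overlapped, and the lower mean of MMSET-Ikk2ca did not pass the test (log2 fold change -0.89, SE 0.348, adjusted p = 0.248). In Control(M) and Ikk2ca(M) the gene had 3.41 ± 1.23 and 4.23 ± 1.73 CPM. Ccnd1, the cyclin D1 gene targeted in the other cohort, was at or under 1.55 CPM in all 10 libraries. The deposited tables list reference transcripts of the mouse, so transgene and endogenous reads of Ikbkb and Nsd2 cannot be told apart.

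Across all genes, 244 of 15416 differed (1.58% called), of which 99 rose with Ikk2ca (0.642%) and 145 fell (0.941%). Of these, 184 changed by at least 2-fold, 70 upward and 114 downward, and in 170 the 6 MMSET-Ikk2ca libraries did not overlap the 4 MMSET libraries. Without regard to the test, the groups did not overlap for 1.94% of all genes in the upward and 1.83% in the downward direction. The median log2 fold change of all genes was 0.0049. Many falls were of rare transcripts, since 67 of the 145 had an average log2 CPM below 3 and 41 had at most 3 reads summed over the 6 MMSET-Ikk2ca libraries, against 21 and 11 of the 99 rises (the 11 with at most 3 reads in MMSET). The count depended on single libraries and was 138 without MMSET replicate 1, 124, 126, 154 and 140 without MMSET-Ikk2ca replicates 1, 2, 3 and 6, and 160 without MMSET replicate 2. With Xist as a covariate it was 121.

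Several NF-kB feedback and target genes rose with Ikk2ca. Tnfaip3, which encodes the ubiquitin-editing brake A20, stood at 36.9, 18.6, 25.2 and 13.6 CPM in MMSET and at 108, 152 and 258 CPM as the lowest, median and highest of MMSET-Ikk2ca. Its groups did not overlap (log2 fold change 2.88, SE 0.48, adjusted p = 0.00512). Tnip1, an A20-binding inhibitor, stood at 9.4, 15.1, 12.4 and 16.9 CPM against 28, 32.5 and 35.8 CPM (log2 fold change 1.26, SE 0.205, adjusted p = 0.00331), again with no overlap. Nfkbia, which encodes the inhibitor IkB-alpha, stood at 298, 254, 210.2 and 278 CPM against 431, 603 and 688 CPM (log2 fold change 1.17, SE 0.216, adjusted p = 0.00847). Each MMSET-Ikk2ca library exceeded each MMSET library. Cxcl10, a chemokine that attracts T cells, was almost silent in MMSET, at 0, 1.64, 1.4 and 0.596 CPM, against 12.1, 23.2 and 41.3 CPM in MMSET-Ikk2ca (log2 fold change 4.83, SE 0.928, adjusted p = 0.0126). The calls of Tnfaip3, Tnip1 and Nfkbia were kept in each of the 18 fits that left out 1 library of the cohort, and that of Cxcl10 in 17 of 18 (adjusted p = 0.0528 without MMSET replicate 4).

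The promoters of these 4 genes are shown because each held the kappaB consensus, the site bound by NF-kB, in the window from 250 bases before to 50 after the RefSeq start site (GRCm38.p6). Both strands were searched for the 10-base consensus by its usual degenerate form, and overlapping matches were merged. Each stretch runs 5′ to 3′ along the gene from 30 bases before the first match to at most 30 after the last, ends before the start site, and has the matches in capitals.
Tnip1: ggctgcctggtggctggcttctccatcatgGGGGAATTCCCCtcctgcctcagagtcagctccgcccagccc
Tnfaip3: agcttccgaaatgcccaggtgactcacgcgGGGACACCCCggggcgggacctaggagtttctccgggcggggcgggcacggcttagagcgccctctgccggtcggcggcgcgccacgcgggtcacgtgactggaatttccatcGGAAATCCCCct
Nfkbia: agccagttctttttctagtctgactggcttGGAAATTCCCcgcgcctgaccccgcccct
Cxcl10: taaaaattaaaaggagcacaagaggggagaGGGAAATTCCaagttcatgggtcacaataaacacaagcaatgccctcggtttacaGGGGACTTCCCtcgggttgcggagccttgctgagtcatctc

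The stretches lie on the minus strand at chr11:54962957-54963028 for Tnip1, chr10:19015411-19015565 for Tnfaip3, chr12:55492648-55492706 for Nfkbia and chr5:92348953-92349078 for Cxcl10. The palindromic run of Tnip1 holds 3 overlapping matches that begin 58 to 56 bases before the start, and Tnfaip3 has matches that begin 125 and 12 bases before it, both in 1 of its 2 RefSeq windows. The match of Nfkbia begins 29 bases before the start, and those of Cxcl10 begin 159, 104 and 103 bases before it. Of 8 called genes of both NF-kB lists that rose, 6 were matched to a promoter, and 4 of these held the consensus. The windows of Icam1 and Rela held none, and Relb and Cd40 had no entry. Among all 32851 promoters of the same length 8.46% held a match, and among the 13299 promoters of genes tested 10.1% did. A match describes the letters only.

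Of the 11 NF-kB subunit and inhibitor genes, 3 rose, 0 fell and 8 did not pass, with a median log2 fold change of 0.85. Among all genes 0.642% rose. Relb, the subunit of the non-canonical arm, stood at 26.7 ± 6.64 CPM in MMSET and 60.4 ± 10.3 CPM in MMSET-Ikk2ca (log2 fold change 1.18, SE 0.223, adjusted p = 0.00996). Rela, the canonical subunit, stood at 31.2 ± 10.1 CPM in MMSET and 52.3 ± 5.19 CPM in MMSET-Ikk2ca (log2 fold change 0.75, adjusted p = 0.0475), with groups that overlapped and a call kept in only 2 of 18 fits without 1 library (adjusted p = 0.14 without MMSET replicate 2). The subunit genes Nfkb1 (log2 fold change -0.25, adjusted p = 0.925), Nfkb2 (log2 fold change 0.08, adjusted p = 0.957) and Rel (log2 fold change -0.08, adjusted p = 0.991) did not pass. Of 13 genes of the IKK complex and its upstream regulators, 1 rose and 12 did not pass (median 0.09). The riser was Ikbke, which encodes the related kinase IKK-epsilon, at 5.7, 10.1, 5.52 and 6.95 CPM in MMSET and at 22.9, 28.4 and 37.7 CPM as the lowest, median and highest of MMSET-Ikk2ca (log2 fold change 2.05, SE 0.439, adjusted p = 0.0227). Its groups did not overlap, and the call was kept in 14 of 18 fits, failing without MMSET replicates 1, 3 or 4 or MMSET-Ikk2ca replicate 1 (adjusted p up to 0.075). Chuk, the gene of IKK1, had 33 ± 4.67 CPM in MMSET and 35.1 ± 7.55 CPM in MMSET-Ikk2ca, and Ikbkg, the gene of the scaffold NEMO, had 16.4 ± 1.93 CPM in MMSET and 14.5 ± 5.02 CPM in MMSET-Ikk2ca.

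Of 34 NF-kB feedback and target genes tested, 5 rose, 1 fell and 28 did not pass (median 0.44, 22 positive). Among all genes 0.642% rose and 0.941% fell. Icam1, an adhesion receptor for leukocyte integrins, stood at 41.1, 48.4, 52.7 and 23.2 CPM in MMSET and at 136, 251.1 and 316 CPM as the lowest, median and highest of MMSET-Ikk2ca. Every library with Ikk2ca lay above every library without it (log2 fold change 2.50, SE 0.382, adjusted p = 0.00238). Cd40, the receptor for T cell help on B cells, stood at 5.82, 11.4, 10.7 and 5.26 CPM against 15, 24.1 and 32.3 CPM, with no overlap (log2 fold change 1.5, adjusted p = 0.0458), but its call was kept in only 4 of 18 fits without 1 library. The list's count of rises fell to 3 without MMSET replicate 4. Bcl2a1d, a BCL2 relative from a family of near-identical genes, had 107 reads over the MMSET libraries and 0 over MMSET-Ikk2ca, which puts it at least 73.2-fold lower against a floor of 3 reads over the group (adjusted p = 0.0437, kept in 3 of 18 fits). Ltb, which encodes lymphotoxin beta, stood at 8.84 ± 7.58 CPM in MMSET and 125 ± 101 CPM in MMSET-Ikk2ca and did not pass (log2 fold change 3.82, adjusted p = 0.076). Cd83 (17.1 ± 22.8 CPM in MMSET and 1.85 ± 1.29 CPM in MMSET-Ikk2ca) and Traf1 (16.1 ± 3.34 CPM in MMSET and 10.4 ± 4.21 CPM in MMSET-Ikk2ca), also classical targets, had lower values that did not pass.

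**Figure D1:**
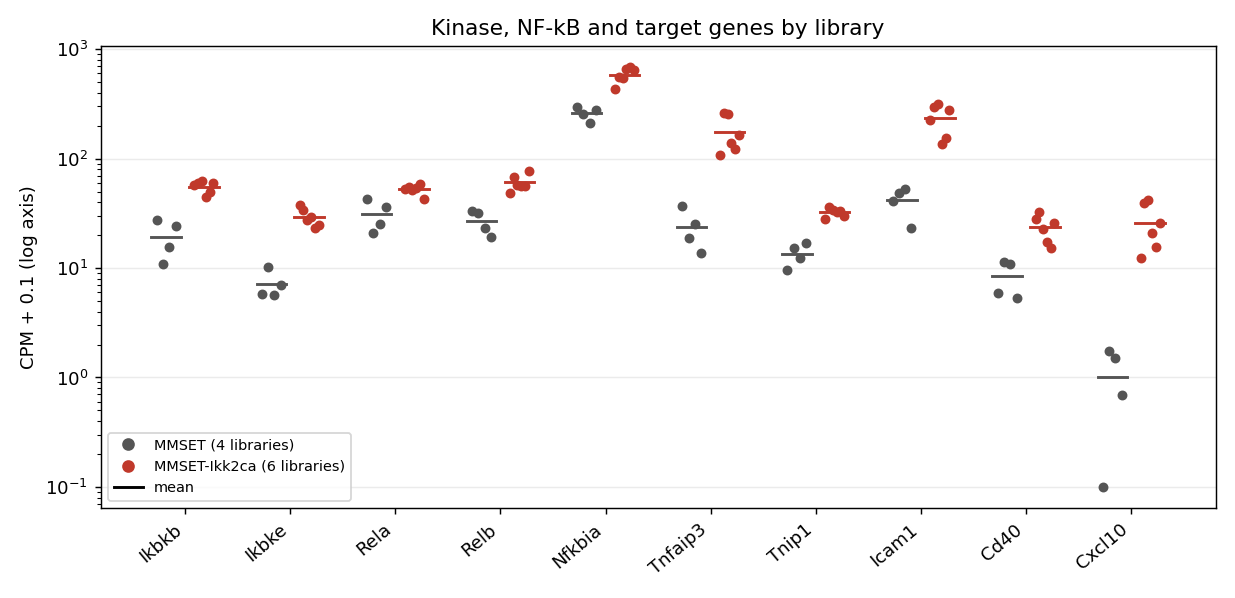
Level of 10 kinase, NF-kB and target genes in each library (vertical axis, CPM + 0.1, log scale), with MMSET in grey, MMSET-Ikk2ca in red and bars at the means. The groups do not overlap for any gene shown except Rela, whose lowest MMSET-Ikk2ca library (42.8 CPM) meets the highest MMSET library (42.9 CPM).

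Interferon-stimulated genes, which encode antiviral effectors and their regulators, had higher values with Ikk2ca. Of 38 tested, 7 rose, 0 fell and 31 did not pass, where 0.642% of all genes rose. The median log2 fold change was 1.45 against 0.0049 for all genes, and 35 had positive values. Ifi27 stood at 22.8, 12.8, 12.1 and 20.5 CPM in MMSET and at 49.8, 112 and 133 CPM as the lowest, median and highest of MMSET-Ikk2ca (log2 fold change 2.53, SE 0.322, adjusted p = 0.000432). Xaf1, a pro-apoptotic interferon target, stood at 4.88, 6.68, 6.81 and 7.57 CPM against 11.8, 31.2 and 40.9 CPM (log2 fold change 2.12, SE 0.36, adjusted p = 0.00462). Ifi211, of the family of DNA sensors, stood at 85.1, 123, 179 and 67.1 CPM against 213, 333 and 384 CPM (log2 fold change 1.45, SE 0.251, adjusted p = 0.00512). Within each of these genes the 6 libraries with Ikk2ca lay above the 4 without it, and MMSET-Ikk2ca replicates 4 and 5 were the lowest of the 6. Irf7, a transcription factor that amplifies the interferon response, stood at 14.6 ± 3.27 CPM in MMSET and 44.5 ± 16.6 CPM in MMSET-Ikk2ca (log2 fold change 1.6, SE 0.316, adjusted p = 0.0122), with replicate 4 of MMSET-Ikk2ca at 16.9 CPM inside the MMSET range. Isg15, a ubiquitin-like protein, stood at 0.853, 4.98, 4.3 and 3.32 CPM against 6.01, 22.3 and 33.9 CPM (log2 fold change 2.59, adjusted p = 0.0408), and its call was kept in only 7 of 18 fits without 1 library. Stat2, which carries interferon signals with Irf9, stood at 15.3 ± 5.78 CPM in MMSET and 36.7 ± 10.9 CPM in MMSET-Ikk2ca (log2 fold change 1.26, adjusted p = 0.0235). Usp18 (1.3 ± 1.09 CPM in MMSET and 18.2 ± 11.3 CPM in MMSET-Ikk2ca) and Bst2 (62.4 ± 13.2 CPM in MMSET and 113 ± 28.3 CPM in MMSET-Ikk2ca) did not pass. The number of rises lay between 5 and 9 when each library was left out in turn. Members of the Ifi and Gbp families are near-identical, so their values are uncertain.

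In the MHC class I and immunoproteasome list, whose products cut and present antigen to cytotoxic T cells, 3 of 22 rose, 1 fell and 18 did not pass (median 0.35, 19 positive). Among all genes 0.642% rose and 0.941% fell. Tap1, the peptide transporter, stood at 88.9 ± 25.6 CPM in MMSET and 175 ± 51.1 CPM in MMSET-Ikk2ca (log2 fold change 0.98, adjusted p = 0.0372). H2-K1 had 1762 ± 372 CPM in MMSET and 2919.6 ± 521 CPM in MMSET-Ikk2ca (log2 fold change 0.73, adjusted p = 0.0437) and H2-D1 2122 ± 381 CPM in MMSET and 3519 ± 874 CPM in MMSET-Ikk2ca (log2 fold change 0.73, adjusted p = 0.0458), heavy chains from a family of near-identical genes. The groups overlapped for all 3, and their calls were kept in 7 of 18, 5 of 18 and 11 of 18 fits for H2-K1, H2-D1 and Tap1. None of the 3 was called without MMSET replicate 1 (H2-K1 adjusted p = 0.139, H2-D1 adjusted p = 0.148 and Tap1 adjusted p = 0.122). Calr, the chaperone calreticulin, fell from 359 ± 63.9 to 222 ± 46.6 CPM (log2 fold change -0.69, adjusted p = 0.0358, kept in 10 of 18 fits).

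Among genes at a mean log2 CPM of 3 or more, the largest rise was that of Ly6i (chromosome 15, 74979534 to 74983430), a small surface protein of the Ly6 family. Its libraries stood at 11.6, 9.0, 25.9 and 18.1 CPM in MMSET and at 159, 2673 and 5255 CPM as the lowest, median and highest of MMSET-Ikk2ca (log2 fold change 7.27, SE 0.951, adjusted p = 0.0017). The groups did not overlap, but within MMSET-Ikk2ca the level ran from 159 CPM in replicate 4 and 553 CPM in replicate 5 to at least 2671 CPM in the other 4. Ly6i has near-identical relatives, so reads may be split among them. Its call was kept in 18 of 18 fits. In Ikk2ca(M) it had 85 ± 39.6 CPM and in Control(M) 12.3 ± 3.6.

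Genes that plasma cells are not known for were among the other large rises. Elf3, an epithelial transcription factor, stood at 0.75, 4.79, 5.64 and 5.07 CPM in MMSET and 9.89, 52.4 and 87.7 CPM as the lowest, median and highest of MMSET-Ikk2ca (log2 fold change 3.72, SE 0.653, adjusted p = 0.00785). Ncan, a proteoglycan of the nervous system, stood at 4.86, 17.4, 60.8 and 19.2 CPM against 183, 285 and 353 CPM (log2 fold change 3.44, SE 0.622, adjusted p = 0.011). Neither gene's groups overlapped. Pigz, an enzyme of the GPI anchor pathway, stood at 6.57, 3.52, 2.97 and 1.99 CPM against 9.76, 27.9 and 54.5 CPM, again apart (log2 fold change 2.95, SE 0.545, adjusted p = 0.00863). Cox6a2, the muscle isoform of a cytochrome oxidase subunit, stood at 4.64 ± 3.76 CPM in MMSET and 26.8 ± 9.69 CPM in MMSET-Ikk2ca (log2 fold change 2.53, adjusted p = 0.0255). MMSET-Ikk2ca replicate 5, at 9.24 CPM, lay below MMSET replicate 1, and the call of Cox6a2 was kept in 13 of 18 fits (adjusted p = 0.0661 without MMSET replicate 3). Elf3 and Ncan belong to a list of 12 genes that rose most in the cohort with Ccnd1, chosen from earlier results of this series and so no independent evidence of direction. Of these 12, Elf3, Ncan and Ifi211 rose here, 9 did not pass and all 12 had positive values (median 1.57). Among all genes 0.642% rose, and the median log2 fold change was 0.0049.

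**Figure D2:**
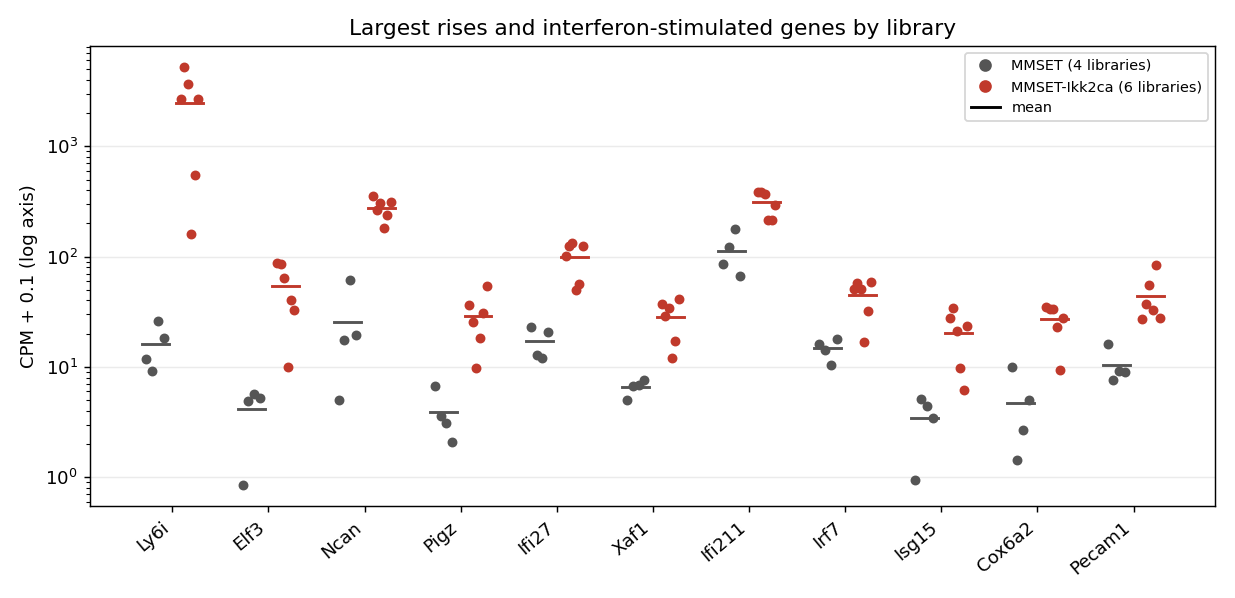
Level of 11 genes that rose with Ikk2ca in each library (vertical axis, CPM + 0.1, log scale), with MMSET in grey, MMSET-Ikk2ca in red and bars at the means. Ly6i spans 159 to 5255 CPM in MMSET-Ikk2ca, and only Irf7 and Cox6a2 overlap between the groups.

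Among 31 adhesion and migration genes 3 rose, 4 fell and 24 did not pass (median -0.66), where 0.642% of all genes rose and 0.941% fell. Pecam1, the homophilic adhesion protein CD31, stood at 16, 7.43, 9.11 and 8.93 CPM in MMSET and at 27.2, 35.1 and 83.9 CPM as the lowest, median and highest of MMSET-Ikk2ca (log2 fold change 2.08, SE 0.315, adjusted p = 0.0019), with no overlap. Pecam1 is also a marker of endothelium. Of the 10 stromal and endothelial markers, 2 were tested, 5 had no read in any MMSET-Ikk2ca library, and the summed level of 27.4 to 83.9 CPM against 8.66 to 16.2 CPM in MMSET was almost all Pecam1. Icam1, described above, and Cd47 were the other rises. Cd47, which signals against phagocytosis, stood at 155 ± 39.4 CPM in MMSET and 309 ± 84.1 CPM in MMSET-Ikk2ca (log2 fold change 0.99, adjusted p = 0.0235, kept in 13 of 18 fits). Selplg, the selectin ligand PSGL-1, fell and stood at 151, 187, 166 and 210.3 CPM against 48.8, 61.9 and 136 CPM (log2 fold change -1.23, SE 0.229, adjusted p = 0.00863), again with no overlap. Anxa2, a membrane-binding annexin, had 2632 reads over the MMSET libraries and 1 over the MMSET-Ikk2ca libraries (adjusted p = 0.000579). MMSET replicate 1 held 38.9 CPM of Anxa2 and the other 3 between 0.727 and 4.57 CPM. S100a4, a calcium-binding protein, also fell and had 970 reads over MMSET and 0 over MMSET-Ikk2ca (adjusted p = 0.0495).

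Of 23 immune interaction ligands and receptors, 2 rose, 3 fell and 18 did not pass, where 0.642% of all genes rose and 0.941% fell. Lgals9, the galectin that binds Tim-3, stood at 34 ± 13.8 CPM in MMSET and 75.8 ± 21.9 CPM in MMSET-Ikk2ca (log2 fold change 1.16, adjusted p = 0.0239, kept in 12 of 18 fits) and Cd47 was the other riser. Btla, an inhibitory receptor of lymphocytes, had 1628 reads over MMSET and 2 over MMSET-Ikk2ca (adjusted p = 0.0307), with 24.4 CPM in MMSET replicate 1, 0 in replicate 3 and at most 2.75 in the others. Cd200 had 312 reads and 1 read (adjusted p = 0.0316). Ctla4, a brake on T cells, had 1724 and 17 reads (adjusted p = 0.0469). The calls of Btla and Cd200 were kept in 12 of 18 and 12 of 18 fits, and none of the 3 falls was called without MMSET replicate 1. Of 15 chemokine genes, Cxcl10 rose, 13 did not pass, and Ccr2, a monocyte chemokine receptor, fell from 1736 to 2 reads (adjusted p = 0.0115), a call that was lost without MMSET replicate 1 (adjusted p = 0.0722). Of 23 TNF superfamily genes Cd40 rose, which it did not without MMSET replicate 1, and 22 did not pass.

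Several genes of the B cell stage, from which plasma cells arise, fell with Ikk2ca. In bulk libraries, fewer cells of a type and less RNA per cell cannot be told apart. In the B cell identity list 6 of 28 fell, 0 rose and 22 did not pass (median -0.97), where 0.941% of all genes fell. Cd79a, which passes on the signal of the surface antibody, stood at 196, 34.7, 28.1 and 44.8 CPM in MMSET and at 0.382, 1.63 and 4.66 CPM as the lowest, median and highest of MMSET-Ikk2ca (log2 fold change -5.32, SE 0.648, adjusted p = 0.000716). The groups did not overlap, and the call was kept in 18 of 18 fits without 1 library. The kinase gene Blk had 634 reads over MMSET and 4 over MMSET-Ikk2ca (adjusted p = 0.00462) and the transcription factor gene Ebf1 178 and 2 reads (adjusted p = 0.00797). Fcrla, an Fc receptor-like protein, stood at 153 ± 70.3 CPM in MMSET and 55.4 ± 8.28 CPM in MMSET-Ikk2ca (log2 fold change -1.47, adjusted p = 0.0131). Other B cell genes did not share this pattern: Ms4a1 (CD20) stood at 23.5 ± 13.8 CPM in MMSET and 39.2 ± 18.5 CPM in MMSET-Ikk2ca and Cd79b at 154 ± 40.5 CPM in MMSET and 145 ± 31.6 CPM in MMSET-Ikk2ca, and neither passed. Pax5, the B cell master regulator, was at 1.14 CPM or less in MMSET. Without MMSET replicate 1, 5 of the 6 B cell falls remained and the list's median was -0.30.

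MHC class II genes, which present antigen to helper T cells and are silenced as B cells become plasma cells, split by member, with 3 of 11 falling (0.941% of all genes fell), 1 rising and 7 not passing (median -2.15). H2-Ab1 stood at 175, 8.59, 56.3 and 27.8 CPM in MMSET and at 0.165, 2.24 and 6.37 CPM as the lowest, median and highest of MMSET-Ikk2ca (log2 fold change -4.71, SE 0.883, adjusted p = 0.0148). H2-Aa, its partner chain, stood at 56.9, 4.59, 20.7 and 9.73 CPM against 1.29, 2.74 and 4.26 CPM (log2 fold change -3.10, adjusted p = 0.0437). H2-Eb2 stood at 3.03 ± 1.49 CPM in MMSET and 0.0542 ± 0.0689 CPM in MMSET-Ikk2ca (log2 fold change -5.78, SE 0.726, adjusted p = 0.000414). The groups did not overlap for these 3 genes. H2-Aa was kept in 5 of 18 fits, and without MMSET replicate 1 only H2-Eb2 was called (H2-Ab1 adjusted p = 0.0535, H2-Aa adjusted p = 0.17). Ciita, the regulator of class II transcription, stood at 2.63 ± 3.3 CPM in MMSET and 0.0666 ± 0.12 CPM in MMSET-Ikk2ca and did not pass (log2 fold change -5.31, adjusted p = 0.182). Cd74, the invariant chain of class II, stood at 6326 ± 991 CPM in MMSET and 10844 ± 2377 CPM in MMSET-Ikk2ca and rose (log2 fold change 0.78, adjusted p = 0.0372, kept in 11 of 18 fits).

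Neutrophil genes were 4 of the 8 largest falls among genes at a mean log2 CPM of 3 or more. Of 14 neutrophil markers tested, 5 fell, 0 rose and 9 did not pass (median -6.52), where 0.941% of all genes fell. S100a8, a calcium-binding protein of neutrophils, stood at 1092, 64.7, 30.1 and 17.6 CPM in MMSET and at 0.284, 1.65 and 4.7 CPM as the lowest, median and highest of MMSET-Ikk2ca (log2 fold change -7.23, SE 1.44, adjusted p = 0.0235). S100a9, its partner, stood at 423, 26.9, 8.07 and 5.26 CPM against 0.0566, 0.653 and 2.31 CPM (log2 fold change -6.84, adjusted p = 0.039), and Camp, a granule peptide, at 187, 6.63, 3.5 and 1.77 CPM against 0, 0.0669 and 0.572 CPM (log2 fold change -8.27, adjusted p = 0.0225). Ngp and Mmp8 also fell (adjusted p = 0.0472 and 0.0421). For these genes no MMSET-Ikk2ca library reached the lowest MMSET library, and MMSET replicate 1 was far above the other 3. The calls were kept in 14 of 18 fits for S100a8, 6 of 18 for S100a9, 14 of 18 for Camp, 2 of 18 for Ngp and 5 of 18 for Mmp8. Without MMSET replicate 1, 0 of the 14 passed in edgeR and the median was -3.96, and 0 passed without MMSET-Ikk2ca replicate 2 or 6. The summed level of the 16 neutrophil markers was 3025, 187, 92.2 and 52.5 CPM in MMSET and 1.71 to 17.8 CPM in MMSET-Ikk2ca, and Ctsg and Prtn3 had no read in MMSET-Ikk2ca. Chil3, a secreted lectin of myeloid cells, had the largest fall among genes at that level, at 221, 5.43, 38 and 3.32 CPM against 6 reads in all over MMSET-Ikk2ca (log2 fold change -12.06, SE 1.86, adjusted p = 0.00484, kept in 18 of 18 fits without 1 library, while limma voom gave adjusted p = 0.187). In Control(M) Chil3 had 10.2 ± 3.62 CPM and S100a8 54.7 ± 28.1 CPM.

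Of 14 monocyte and macrophage markers, Lyz2 (lysozyme, shared with neutrophils) fell from 231 ± 374 to 2.03 ± 2.67 CPM (log2 fold change -6.83, adjusted p = 0.039), a call kept in 7 of 18 fits and lost without MMSET replicate 1 (adjusted p = 0.133), and 13 did not pass. The summed level of 16 such markers was 667 to 1685 CPM in MMSET and 609 to 966 CPM in MMSET-Ikk2ca, most of it Ctss (649 ± 105 CPM in MMSET and 708 ± 124 CPM in MMSET-Ikk2ca). Of 12 T cell markers, Cd8b1 had 0 reads in MMSET and 871 over MMSET-Ikk2ca, at least 142-fold higher against a floor of 3 reads over the group (adjusted p = 0.0421, kept in 6 of 18 fits), while the summed T cell level of 2.14 to 7.08 CPM lay within the 2.35 to 9.89 CPM of MMSET except for 2 libraries below. Markers of NK cells (5 tested), erythroid cells (5), megakaryocytes (1), dendritic cells (8) and basophils, eosinophils and mast cells (2) gave 0 calls with edgeR over all libraries. The summed level of the 8 basophil, eosinophil and mast cell markers, led by Prg2, the eosinophil major basic protein, was 374, 56.2, 84.7 and 51.3 CPM in MMSET and 256, 306 and 641 CPM as the lowest, median and highest of MMSET-Ikk2ca. MMSET replicate 1 lay inside the range of MMSET-Ikk2ca and the other 3 below it. Prg2 did not pass over all libraries (log2 fold change 1.61, adjusted p = 0.201), and passed without MMSET replicate 1 (log2 fold change 2.86, adjusted p = 0.00153) and in DESeq2 (adjusted p = 0.0493). Among the dendritic cell markers Irf8, which B cells also express, had 25.6 ± 21.7 CPM in MMSET and 49.5 ± 13.1 CPM in MMSET-Ikk2ca and passed without MMSET replicate 1 (log2 fold change 1.74, adjusted p = 0.00886). Of 4 B cell precursor markers Ebf1 fell. Beside these marker counts, 0.642% of all genes rose and 0.941% fell. The part of these other cell types in the changes named above was not tested.

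**Figure D3:**
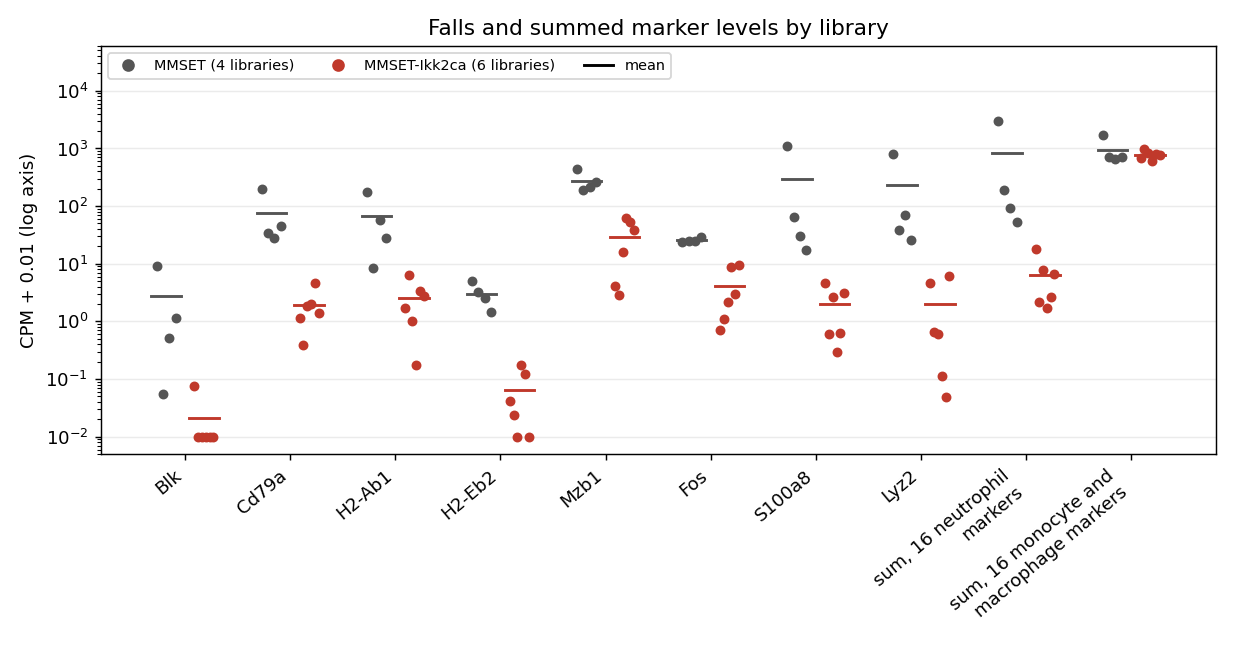
Levels of 8 genes that fell with Ikk2ca and summed levels of 2 marker lists in each library (vertical axis, CPM + 0.01, log scale), with MMSET in grey, MMSET-Ikk2ca in red and bars at the means. S100a8, Lyz2 and the neutrophil sum are highest in MMSET replicate 1, at 1092, 792 and 3025 CPM. Mzb1 is also highest in MMSET replicate 1, while the MMSET libraries lie close together for Fos.

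The plasma cell program and antibody output were measured in the same libraries. In the plasma cell identity list 4 of 27 fell, 0 rose and 23 did not pass (median -0.49), where 0.941% of all genes fell. Mzb1, a chaperone of antibody assembly, stood at 448, 189, 214 and 258 CPM in MMSET and at 2.87, 27.1 and 61.3 CPM as the lowest, median and highest of MMSET-Ikk2ca (log2 fold change -3.24, SE 0.679, adjusted p = 0.0289), with no overlap. It was kept in 14 of 18 fits and failed without MMSET replicates 1 or 4 or MMSET-Ikk2ca replicates 3 or 6 (adjusted p up to 0.0836). Txndc5, a disulphide isomerase, stood at 1412 ± 443 CPM in MMSET and 799 ± 135 CPM in MMSET-Ikk2ca (log2 fold change -0.82, adjusted p = 0.0358), and Creld2, a stress protein of the endoplasmic reticulum, at 1289.6 ± 345 CPM in MMSET and 777 ± 192 CPM in MMSET-Ikk2ca (log2 fold change -0.73, adjusted p = 0.0479). Slamf6, a lymphocyte receptor, stood at 3.73 ± 1.99 CPM in MMSET and 0.141 ± 0.31 CPM in MMSET-Ikk2ca (log2 fold change -4.64, adjusted p = 0.0466). Txndc5, Creld2 and Slamf6 were kept in 12 of 18, 3 of 18 and 2 of 18 fits. Without MMSET replicate 4, 0 of the 27 passed in edgeR, with Creld2 at adjusted p = 0.171. Prdm1 (97.2 ± 44.5 CPM in MMSET and 55.1 ± 18.3 CPM in MMSET-Ikk2ca), Xbp1 (2479 ± 819 CPM in MMSET and 1732 ± 350.0 CPM in MMSET-Ikk2ca) and Irf4 (158 ± 14.8 CPM in MMSET and 145 ± 40.4 CPM in MMSET-Ikk2ca), the transcription factors that set the plasma cell state, did not pass, nor did Jchain (10898 ± 7709.5 CPM in MMSET and 3002 ± 1260.5 CPM in MMSET-Ikk2ca).

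In the secretory pathway and unfolded protein response list 2 of 30 fell and 28 did not pass (median -0.03), where 0.941% of all genes fell. Pdia4, a disulphide isomerase, stood at 1845, 2312, 1579 and 2106 CPM in MMSET and at 898, 1045 and 1571 CPM as the lowest, median and highest of MMSET-Ikk2ca (log2 fold change -0.81, SE 0.14, adjusted p = 0.00509), with no overlap and a call kept in 18 of 18 fits. Hsp90b1, the chaperone GRP94, stood at 3153 ± 632 CPM in MMSET and 1948 ± 386 CPM in MMSET-Ikk2ca (log2 fold change -0.69, adjusted p = 0.0237, kept in 13 of 18 fits). Of 21 genes of the ATF4 and amino acid stress response 0 passed in edgeR, while 18 had positive values (median 0.56), and DESeq2 called 2 higher and 1 lower. Asparagine synthetase, Asns, stood at 86.2 ± 11.8 CPM in MMSET and 137 ± 28 CPM in MMSET-Ikk2ca (log2 fold change 0.67, adjusted p = 0.080).

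Immunoglobulin genes took 67.6%, 70.1%, 71.4% and 70.6% of all reads in MMSET replicates 1 to 4, and 43.9%, 59.4% and 65.9% as the lowest, median and highest of MMSET-Ikk2ca. All 6 libraries with Ikk2ca lay below all 4 without it. The means were 69.9% ± 1.61 (SD, n = 4) and 58.4% ± 8.01 (SD, n = 6), a difference of -11.6 percentage points (exact two-sided permutation test, p = 0.00952, the smallest that 210 splits can give). Without MMSET-Ikk2ca replicate 6, the lowest library, the difference was -8.65 points. It was -5.06 points when shares were taken from TPM (exact permutation p = 0.0381) and -7.61 points with replicates 1 to 4 of each group (exact permutation p = 0.0286). The share in Control(M) was 66.6% ± 0.901 (SD, n = 4) and in Ikk2ca(M) 65.5% ± 2.44 (SD, n = 4). Of 12 immunoglobulin constant genes 0 passed in edgeR, and 2 fell in DESeq2. Ighg1, the constant region of IgG1, ran from 4466 to 72233 CPM in MMSET and from 21.7 to 6081 CPM in MMSET-Ikk2ca (log2 fold change -4.04, adjusted p = 0.0966). The leading heavy chain V gene held 28.0% ± 19.8 (SD, n = 4) of heavy chain V reads in MMSET and 44.5% ± 18.7 (SD, n = 6) in MMSET-Ikk2ca (exact permutation p = 0.2, adjusted over 2 tests 0.2). The leading kappa V gene held 28.4% ± 7.95 (SD, n = 4) and 50.3% ± 25.0 (SD, n = 6) of kappa V reads (exact permutation p = 0.124, adjusted 0.2). Kappa shares leave out lambda light chains, which held 8.36% to 22.7% of light chain constant reads in MMSET and 2.71% to 83.6% in MMSET-Ikk2ca. Without MMSET replicate 3, whose leading heavy chain V gene held 57.2%, the heavy chain difference was 26.2 points (exact permutation p = 0.0476 before adjustment). Neither leading V gene share differed by more than the spread in all libraries, and V genes of 1 family are near-identical, so their shares are uncertain.

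Cell cycle, survival and stress genes changed singly. In the D-type cyclins and RB list 2 of 22 fell and 20 did not pass, where 0.941% of all genes fell and 0.642% rose. Cdkn2c, which encodes the CDK4 and CDK6 inhibitor p18, stood at 5.15, 7.2, 10.1 and 8.09 CPM in MMSET and at 1.13, 2.27 and 3.43 CPM as the lowest, median and highest of MMSET-Ikk2ca (log2 fold change -1.80, SE 0.313, adjusted p = 0.00531), with no overlap and a call kept in 18 of 18 fits. Cdk6, a kinase that p18 inhibits, stood at 5.59, 0.818, 4.95 and 0.0186 CPM against 16 reads in all over MMSET-Ikk2ca (adjusted p = 0.044, kept in 3 of 18 fits). Cdkn1a, the gene of the inhibitor p21, stood at 15 ± 9.35 CPM in MMSET and 59.6 ± 11 CPM in MMSET-Ikk2ca and did not pass (log2 fold change 1.99, adjusted p = 0.0508). Of 30 mitosis genes and 32 DNA replication genes 0 passed in edgeR, with medians of -0.26 and -0.05, and DESeq2 called 0 and 1. Tk1, the thymidine kinase of S phase, stood at 16.5 ± 7.9 CPM in MMSET and 36.2 ± 5.8 CPM in MMSET-Ikk2ca (log2 fold change 1.13, adjusted p = 0.0732). Bbc3, the death gene PUMA, was the single riser in both the p53 target list (1 of 18) and the BCL2 family list (1 of 19, where Bcl2a1d fell), at 4.21, 3.41, 6.61 and 5.31 CPM in MMSET and 7.05, 14.3 and 19.3 CPM in MMSET-Ikk2ca (log2 fold change 1.54, SE 0.272, adjusted p = 0.00596, no overlap, kept in 18 of 18 fits).

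Among 21 AP-1 and immediate-early genes 2 fell, where 0.941% of all genes fell. Fos stood at 24.1, 24.7, 25.2 and 28.8 CPM in MMSET and at 0.693, 2.54 and 9.51 CPM as the lowest, median and highest of MMSET-Ikk2ca (log2 fold change -2.62, SE 0.557, adjusted p = 0.0235), with no overlap, and its call failed without MMSET replicate 4 or MMSET-Ikk2ca replicate 3 (adjusted p up to 0.0562). Dusp2, a phosphatase of MAP kinases, had 228 reads over MMSET and 0 over MMSET-Ikk2ca, at least 156-fold lower against 3 reads over the group (adjusted p = 0.0237, 0.059 without MMSET replicate 1). Ctse, the protease cathepsin E, was the 1 of 20 cathepsin and lysosome genes that fell (21.3 ± 10.2 CPM in MMSET and 7.7 ± 4.71 CPM in MMSET-Ikk2ca, log2 fold change -1.47, adjusted p = 0.0458, kept in 2 of 18 fits). Histone methylation enzymes and readers (25 genes, median 0.07), oxidative phosphorylation genes (35, median -0.07) and cytoskeleton genes (26, median -0.30) gave 0 calls in edgeR, and DESeq2 called 1, a cytoskeleton gene that was lower. Outside these lists, Zcwpw1, a reader of histone methylation, and Fmnl1, a formin, fell on MMSET. Both calls were kept in 18 of 18 fits without 1 library (adjusted p up to 0.0333 for Zcwpw1 and 0.00468 for Fmnl1). Of 12 genes that fell most in the cohort with Ccnd1, a list taken from earlier results of this series and so no independent evidence, Anxa2, H2-Ab1, H2-Aa and Ctse fell here (median -1.68).

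**Figure D4:**
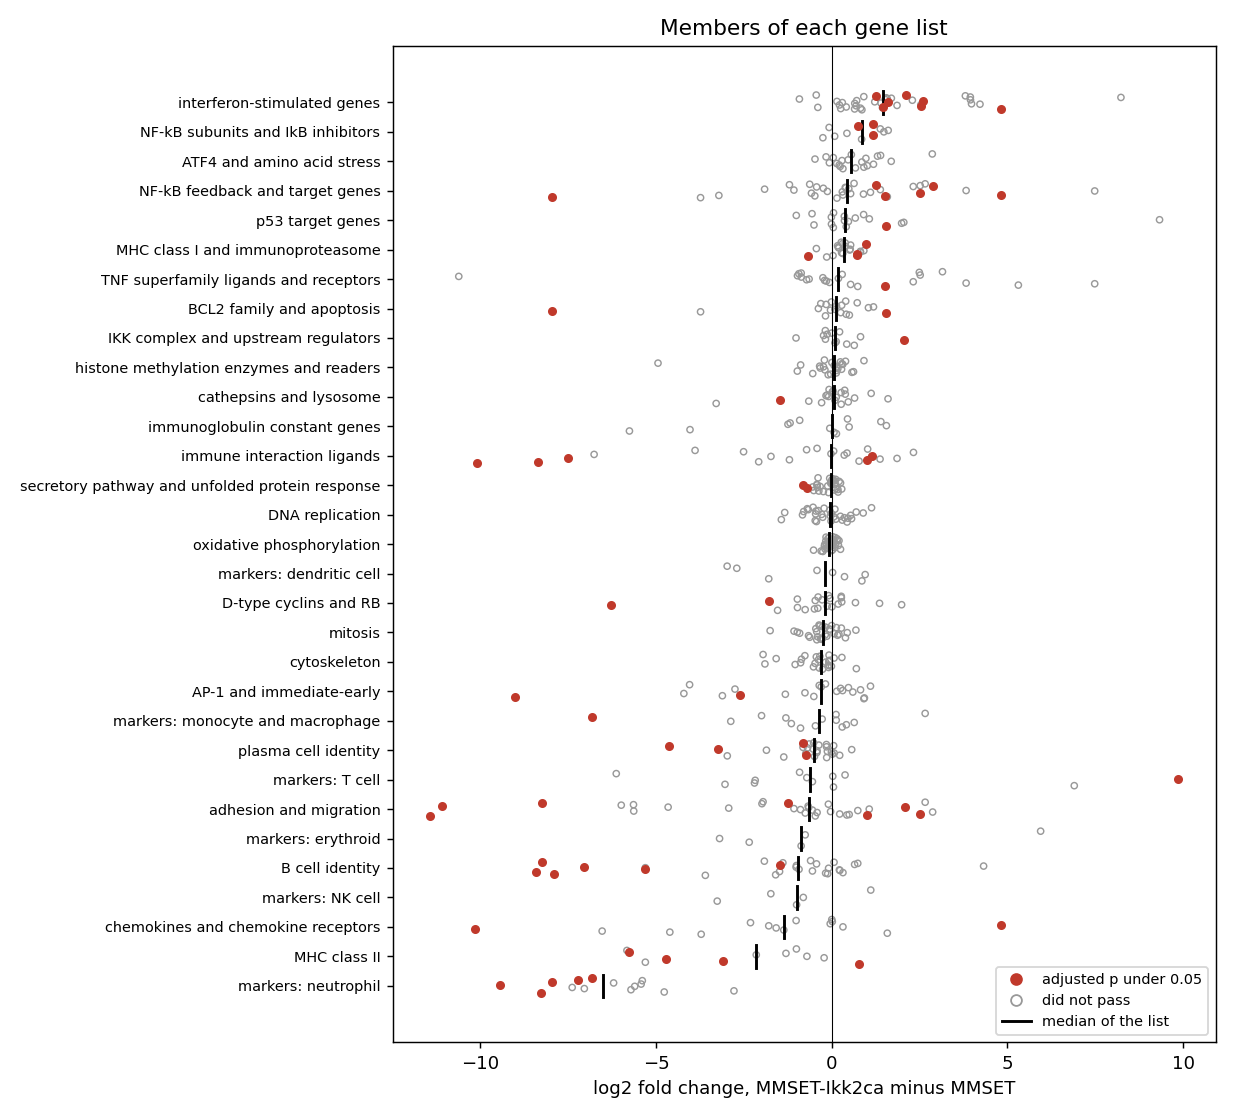
Log2 fold change of MMSET-Ikk2ca minus MMSET (horizontal axis) for each tested member of the lists with at least 5 tested genes, ordered by list median. Filled red points passed at an adjusted p under 0.05, open points did not, and black bars are list medians, from -6.52 for the neutrophil markers to 1.45 for the interferon-stimulated genes.

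The effect of Ikk2ca on MMSET cells was compared with its effect on control cells of the same cohort, as the difference between 2 log2 fold changes from libraries that are not shared. Of 15416 genes 15 differed (0.0973%), 3 with a higher (0.0195%) and 12 with a lower (0.0778%) effect on MMSET, and 1605 had an unadjusted p under 0.05. DESeq2 gave 369 calls. The count was 31 without MMSET replicate 1, 25 without MMSET-Ikk2ca replicate 4, 8 without MMSET replicate 2, 4 without MMSET-Ikk2ca replicate 2, 5, 4 and 9 without Control(M) replicates 1, 3 and 4, and 6 without Ikk2ca(M) replicate 2. St8sia4, which builds polysialic acid, stood at 27.7 ± 6.87 CPM in Control(M) and 14.4 ± 2.3 CPM in Ikk2ca(M) and at 10.8 ± 1.72 CPM in MMSET and 19.1 ± 1.47 CPM in MMSET-Ikk2ca, so Ikk2ca went with a lower mean on the control and a higher one on MMSET (difference 1.78, SE 0.264, adjusted p = 0.00777). Hsd3b7, an enzyme of bile acid synthesis, stood at 5.19 ± 1.19 CPM in Control(M) and 26.7 ± 5.6 CPM in Ikk2ca(M) and at 37 ± 11.2 CPM in MMSET and 24.5 ± 6.81 CPM in MMSET-Ikk2ca (difference -2.96, SE 0.362, adjusted p = 0.0019). Ccnd2, the gene of cyclin D2, stood at 355 ± 139 CPM in Control(M) and 1107 ± 189.8 CPM in Ikk2ca(M) and at 931 ± 325 CPM in MMSET and 551 ± 127 CPM in MMSET-Ikk2ca (difference -2.40, SE 0.413, adjusted p = 0.025, kept in 11 of 18 fits). Zcwpw1, a reader of histone methylation, stood at 10.7 ± 4.31 CPM in Control(M) and 43.8 ± 41.8 CPM in Ikk2ca(M) and at 44.9 ± 26.3 CPM in MMSET and 6.34 ± 2.18 CPM in MMSET-Ikk2ca (difference -4.85, SE 0.798, adjusted p = 0.025, kept in 13 of 18). For these last 3 genes MMSET alone was already near or above the level of Ikk2ca alone. In the test of MMSET-Ikk2ca against MMSET, St8sia4 passed (kept in 15 of 18 fits), as did Zcwpw1 (18 of 18). The lower means of Hsd3b7 and Ccnd2 on MMSET did not pass, and 0 of 18 fits without 1 library called either.

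Slc7a11, the cystine transporter, had higher means with Ikk2ca on both backgrounds, though its rise on MMSET did not pass in edgeR. It stood at 0.0247 ± 0.0169 CPM in Control(M) and 3.16 ± 2.37 CPM in Ikk2ca(M) and at 9.94 ± 5.51 CPM in MMSET and 24.5 ± 10.3 CPM in MMSET-Ikk2ca (difference -5.60, SE 0.822, adjusted p = 0.00777), where the Control(M) mean was near 0, so the size of the difference is uncertain. H2-Eb2 (difference -5.37, SE 0.984, adjusted p = 0.0346) and Anxa2 (adjusted p = 0.025) also fell more on MMSET than on the control, where H2-Eb2 stood at 13.7 ± 3.48 CPM in Control(M) and 10.3 ± 3.54 CPM in Ikk2ca(M), but H2-Eb2 was kept in 7 and Anxa2 in 12 of 18 fits. The NF-kB genes examined did not pass this test, which does not show that the effects were alike. Tnfaip3 stood at 24.1 ± 16.5 CPM in Control(M) and 108 ± 44.9 CPM in Ikk2ca(M) (difference 0.73, SE 0.633, adjusted p = 0.797), Icam1 at 38.6 ± 21.7 CPM in Control(M) and 209 ± 59.9 CPM in Ikk2ca(M) (difference 0.06, SE 0.511, adjusted p = 1.0) and Nfkbia at 252 ± 84.5 CPM in Control(M) and 581 ± 141 CPM in Ikk2ca(M) (difference -0.03, SE 0.308, adjusted p = 1.0). Irf7, at 21.8 ± 4.38 CPM in Control(M) and 16.2 ± 6.25 CPM in Ikk2ca(M), and Cxcl10, at 2.53 ± 2.07 CPM in Control(M) and 2.41 ± 1.38 CPM in Ikk2ca(M), had no higher mean with Ikk2ca on the control, and the differences of 2.03 and 4.90 did not pass (adjusted p = 0.103 and 0.137). Mzb1, at 640.2 ± 77 CPM in Control(M) and 405 ± 147 CPM in Ikk2ca(M), did not pass either (adjusted p = 0.381).

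**Figure D5:**
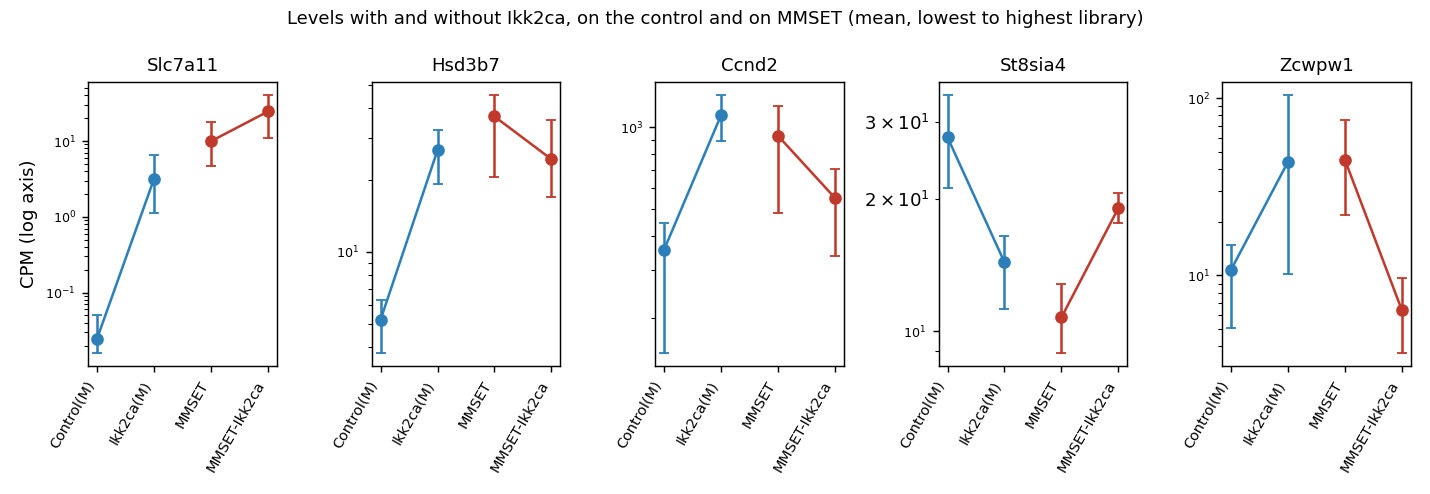
Level of 5 genes (vertical axes, CPM, log scale) in the 4 groups of the cohort, with points at the mean and bars from the lowest to the highest library. Blue lines join Control(M) to Ikk2ca(M) and red lines join MMSET to MMSET-Ikk2ca. Mean St8sia4 is lower with Ikk2ca on the control and higher on MMSET. The means of Hsd3b7, Ccnd2 and Zcwpw1 are higher on the control and lower on MMSET. On MMSET the changes of Hsd3b7, Ccnd2 and Slc7a11 did not pass in edgeR.

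The effect of Ikk2ca on MMSET was then set against its effect on Ccnd1, in a fit of all 36 libraries with levels scaled over them. Of 17116 genes 34 differed (0.199%), 20 with a higher (0.117%) and 14 with a lower (0.0818%) effect on MMSET, 2181 had an unadjusted p under 0.05, and DESeq2 gave 606 calls. The count was 6 without MMSET replicate 2, 57 without MMSET-Ikk2ca replicate 4, and 10, 13 and 100 without Ccnd1 replicates 1, 3 and 4. Irf7 had 18.2 ± 4.6 CPM in Ccnd1 and 12.7 ± 3.88 in Ccnd1-Ikk2ca, against 14.3 ± 3.22 in MMSET and 43.6 ± 16.3 in MMSET-Ikk2ca (difference 2.13, SE 0.411, adjusted p = 0.0186, kept in 19 of 20 fits). Cdkn2c had 12.9 ± 4.71 CPM in Ccnd1 and 18.9 ± 4.12 in Ccnd1-Ikk2ca, against 7.47 ± 1.99 in MMSET and 2.15 ± 0.831 in MMSET-Ikk2ca (difference -2.35, SE 0.397, adjusted p = 0.0047). It was kept in 20 of 20 fits. Ctsh, the protease cathepsin H, had 33.1 ± 15.4 CPM in Ccnd1 and 6.16 ± 4.29 in Ccnd1-Ikk2ca, against 9.63 ± 10.03 in MMSET and 29.5 ± 8.39 in MMSET-Ikk2ca (difference 4.04, SE 0.788, adjusted p = 0.0214). Hmox1, the heme oxygenase gene, had 20.4 ± 13.1 CPM in Ccnd1 and 5.35 ± 2.35 in Ccnd1-Ikk2ca, against 4.57 ± 1.41 in MMSET and 8.55 ± 3.68 in MMSET-Ikk2ca (difference 2.83, SE 0.571, adjusted p = 0.0214). Ctsw, cathepsin W of cytotoxic lymphocytes, had 26 ± 8.47 CPM in Ccnd1 and 34.3 ± 11.8 in Ccnd1-Ikk2ca, against 52.2 ± 23.8 in MMSET and 11.1 ± 5.17 in MMSET-Ikk2ca (difference -2.64, SE 0.492, adjusted p = 0.0155). Csn3, the milk protein kappa-casein, had 14.1 ± 12.7 CPM in Ccnd1 and 481 ± 135 in Ccnd1-Ikk2ca, against 469.7 ± 203 in MMSET and 632 ± 176 in MMSET-Ikk2ca (difference -4.66, SE 0.965, adjusted p = 0.0259), so the MMSET level without Ikk2ca was already high.

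Osbpl5 (difference 3.17, SE 0.667, adjusted p = 0.0241) and Zfp280b (difference 3.07, SE 0.611, adjusted p = 0.0214) also had a higher effect on MMSET than on Ccnd1. Osbpl5 had 17.2 ± 8.86 CPM in Ccnd1 and 4.43 ± 1.39 in Ccnd1-Ikk2ca. It had 3.24 ± 2.34 CPM in MMSET and 7.57 ± 1.36 in MMSET-Ikk2ca. Zfp280b had 51.8 ± 35.6 CPM in Ccnd1 and 6.94 ± 2.16 in Ccnd1-Ikk2ca. It had 10.04 ± 3.28 CPM in MMSET and 11.3 ± 4.35 in MMSET-Ikk2ca. In the test of MMSET-Ikk2ca against MMSET, Ctsh, Osbpl5, Zfp280b, Hmox1 and Csn3 did not pass. Fmnl1, a formin of leukocytes, had 1646 reads over MMSET and 1 over MMSET-Ikk2ca, and fell more on MMSET (adjusted p = 0.0214). Its mean was lower with Ikk2ca in both models, at 29.6 ± 12.8 CPM in Ccnd1 and 3.88 ± 3.18 in Ccnd1-Ikk2ca, against 7.15 ± 8.59 in MMSET and 0.00246 ± 0.00603 in MMSET-Ikk2ca. Of the 9 genes named for this comparison, Cdkn2c was kept in all 20 fits that left out 1 library, and the other 8 were not called without MMSET replicate 2 (adjusted p up to 0.10 over the 20 fits). The NF-kB genes Tnfaip3 (difference 0.20, SE 0.554, adjusted p = 0.97), Nfkbia (difference 0.09, SE 0.296, adjusted p = 0.982), Relb (difference -0.06, SE 0.322, adjusted p = 1.0) and Icam1 (difference -0.82, SE 0.457, adjusted p = 0.4657) did not pass this test.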

How the data were processed

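The authors quantified reads with Salmon 1.3.0 after bcl2fastq 2.20.0.422 on GRCm38, per the submitters' processing notes, which also name DESeq2 1.32.0. The deposited tables hold estimated counts per transcript as the authors' Salmon run gave them. They also hold TPM, scaled by the authors' Salmon run for transcript length and depth and used only for an alternative. The annotation release and the library's strand setting are not given in the sources used here. Each library came from 2000 sorted cells whose cDNA was amplified by PCR, per the labels' protocols.

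Estimated counts were summed per gene (139960 of 140825 transcripts matched GENCODE mouse release 21, 54203 genes, unmatched 0.0658% to 0.134% of reads) and rounded. No 2 libraries were identical. Genes were tested with edgeR 4.0.16 (TMM, filterByExpr, robust quasi-likelihood fit, adjusted p under 0.05) over the 18 libraries of the cohort, or all 36 for the comparison with Ccnd1. The SE is the log2 fold change over the square root of F. Immunoglobulin shares were set against each other by an exact permutation test, two-sided. Alternatives were DESeq2 1.42.0 (adjusted p left NA where it gave none) and its size factors, limma 3.58.1 voom, omission of the low-count filter or of immunoglobulin genes, Xist as a covariate, other sets of libraries, a replicate block and leaving out each library. Data were simulated for MMSET-Ikk2ca against MMSET with 11095 genes at a mean of at least 1 CPM. Of these, 100 were changed 2-fold and 100 were changed 4-fold. The test found 10% of the 2-fold and 54% of the 4-fold changes, and 3.03% of its calls were false.

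The text names Nsd2, Ikbkb and Ccnd1, the 8 called genes with the largest fold change in each direction at a mean log2 CPM of 3 or more, up to 4 called genes of smallest p per list or, with none called, the one of smallest p, and the 4 called genes with the largest difference each way. That rule skips unnamed gene models, sex-linked genes used to check libraries, and variable, diversity and joining segments. Some list members are counted in their lists and not reported here by name. Other list members were named after their values were seen. The members and the 38 lists were chosen with earlier results of these data known. Software was R 4.3.3 and Python 3.11.15, with matplotlib 3.10.9, scipy 1.17.1, pandas 2.3.3 and numpy 2.4.6.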

Additional observations from a re-analysis of the deposited data

Results flagged for a closer look

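Of 178 groups of 4 or 6 libraries tested for a library far from the others by Dixon's criterion, 30 were marked. In 7 of them 1 library held the gene's only reads, which marks a group by construction. Of the other 171 groups 23 were marked. The criterion's rate of about 1 group in 20 holds for independent groups of normal values. The genes here were chosen from these same data and many share a far library, so the count cannot be set against that rate. Within MMSET, replicate 1 was the far library for all 14 genes with a far high value. Its levels were Chil3 at 221 CPM, Btla at 24.4 CPM, Camp at 187 CPM, Ngp at 424 CPM, S100a8 at 1092 CPM, S100a9 at 423 CPM, Cd79a at 196 CPM, Blk at 9.24 CPM, Anxa2 at 38.9 CPM, Ccr2 at 26.4 CPM, Mmp8 at 77.7 CPM, Lyz2 at 792 CPM, Prg2 at 323 CPM and Fmnl1 at 20.5 CPM. The lowest MMSET library of Asns stood apart at 68.7 CPM. Replicate 1 of MMSET-Ikk2ca was far above the other 5 for Chil3 at 0.0644 CPM, Mmp8 at 0.177 CPM and Itga2b at 0.628 CPM. Replicate 4 of MMSET-Ikk2ca was far above the other 5 for Ctse at 16.8 CPM. Replicate 5 of MMSET-Ikk2ca was far above the other 5 for Cdk6 at 0.19 CPM. Replicate 6 of MMSET-Ikk2ca was far above the other 5 for Slamf6 at 0.771 CPM, Cd8b1 at 4.31 CPM and Prg2 at 641 CPM. The genes with reads in 1 MMSET-Ikk2ca library only were Btla at 0.0322 CPM in replicate 1, Blk at 0.0644 CPM in replicate 1, Ebf1 at 0.0301 CPM in replicate 3, Anxa2 at 0.0101 CPM in replicate 6, Cd200 at 0.0141 CPM in replicate 2, Klrd1 at 0.244 CPM in replicate 6 and Fmnl1 at 0.015 CPM in replicate 3. Of these 15 MMSET-Ikk2ca values, 12 are below 1 CPM.

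The log2 effect of Ikk2ca on MMSET differed from that on the control, by the edgeR test of the difference, for St8sia4 (1.78, adjusted p = 0.00777), Slc7a11 (-5.60, adjusted p = 0.00777), Zcwpw1 (-4.85, adjusted p = 0.025), Hsd3b7 (-2.96, adjusted p = 0.0019) and Ccnd2 (-2.40, adjusted p = 0.025). It differed from the effect on Ccnd1 for Cdkn2c (-2.35, adjusted p = 0.0047), Ctsh (4.04, adjusted p = 0.0214), Osbpl5 (3.17, adjusted p = 0.0241), Zfp280b (3.07, adjusted p = 0.0214), Hmox1 (2.83, adjusted p = 0.0214), Fmnl1 (-7.84, adjusted p = 0.0214), Csn3 (-4.66, adjusted p = 0.0259) and Ctsw (-2.64, adjusted p = 0.0155). These values are described with the levels of each group in the comparisons above.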

How the results depend on the processing

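For MMSET-Ikk2ca against MMSET the 244 calls became 784 with DESeq2 (236 of the 244 shared), 379 with all 36 libraries in 1 fit (222 shared), 121 with Xist as a covariate (120 shared), 108 with only the 2 groups in the fit (96 shared), and 124 to 362 when each library was left out. With the replicate number as a block the count was 115, against 123 for replicates 1 to 4 with no replicate block. Same-numbered libraries correlated at 0.033, -0.042, 0.069 and 0.106, so the numbers were not taken to pair the samples. The split of higher to lower calls turned from 99 and 145 to 61 and 47 with only the 2 groups. The 15 genes whose effect differed from that on the control became 369 with DESeq2, 33 with limma voom, 24 without immunoglobulin genes, 5 with Xist as a covariate, 3 with the replicate block (13 with replicates 1 to 4 and no block) and 4 to 31 with each library left out. The 34 genes that differed from the effect on Ccnd1 became 606 with DESeq2, 89 with limma voom, 10 with the replicate block, 7 with replicates 1 to 4 and no block, and 6 to 100 with each library left out. The leading heavy chain V gene difference of 16.5 points ran from 11.7 to 26.2 points over the same omissions. The cause of these changes was not tested. Of 89 results for single genes 75 were called. Of these, 16 kept the call in every alternative and 59 lost it in at least 1, among them Chil3, Blk, Ebf1, Elf3 and Pigz with limma voom and Nfkbia, Relb and Bbc3 with the replicate block. Of the 14 not called, 8 were called in no alternative, and 0 of the 89 reversed. In simulated data only 10% of 2-fold changes were recovered, so real changes of that size may often have been missed. The simulation held no library that stood apart as MMSET replicate 1 did, and changed 100 genes 2-fold and 100 genes 4-fold. In the data 184 of the 244 calls changed by at least 2-fold and the others by less, so the simulated rate need not hold for these libraries.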

Other observations

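Outside the lists and the genes named above, the 8 genes with the smallest p at a mean log2 CPM of 3 or more were read out, a choice made after the values were seen. Of these, 4 rose with Ikk2ca on MMSET. Cyba, the p22phox subunit of NADPH oxidase, stood at 204 ± 26.2 CPM in MMSET and 612 ± 70.7 CPM in MMSET-Ikk2ca (log2 fold change 1.59, adjusted p = 0.000105). It had 184 ± 49.2 CPM in Control(M) and 508 ± 69 in Ikk2ca(M). Prlr, the prolactin receptor, stood at 22.3 ± 3.96 CPM in MMSET and 57.5 ± 3.88 CPM in MMSET-Ikk2ca (log2 fold change 1.37, adjusted p = 0.000105). It had 28 ± 3.35 CPM in Control(M) and 43.6 ± 7.55 in Ikk2ca(M). Slc9a7, a sodium and proton exchanger, stood at 7.24 ± 0.689 CPM in MMSET and 28.6 ± 10.6 CPM in MMSET-Ikk2ca (log2 fold change 1.98, adjusted p = 0.00117). It had 8.67 ± 1.83 CPM in Control(M) and 16.8 ± 3.96 in Ikk2ca(M). N4bp2l1 stood at 4.9 ± 2.13 CPM in MMSET and 21.2 ± 3.83 CPM in MMSET-Ikk2ca (log2 fold change 2.11, adjusted p = 0.00149). It had 8.75 ± 3.22 CPM in Control(M) and 17 ± 4.84 in Ikk2ca(M).

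The other 4 fell. Acp5, tartrate-resistant acid phosphatase, stood at 17.4 ± 4.15 CPM in MMSET and 1.24 ± 0.66 CPM in MMSET-Ikk2ca (log2 fold change -3.81, adjusted p = 0.000105). It had 21.8 ± 7.85 CPM in Control(M) and 12.5 ± 3.11 in Ikk2ca(M). Ets1, a transcription factor of lymphocytes, stood at 14 ± 7.64 CPM in MMSET and 1.79 ± 0.614 CPM in MMSET-Ikk2ca (log2 fold change -2.98, adjusted p = 0.000414). It had 33.3 ± 4.22 CPM in Control(M) and 6.71 ± 3.55 in Ikk2ca(M). Panx1, a channel protein, stood at 15.3 ± 4.25 CPM in MMSET and 2.71 ± 1.57 CPM in MMSET-Ikk2ca (log2 fold change -2.49, adjusted p = 0.0017). It had 14.5 ± 6.15 CPM in Control(M) and 10.1 ± 2.11 in Ikk2ca(M). Gt(ROSA)26Sor, the transcript of the Rosa26 locus, widely used to insert transgenes, stood at 13.1 ± 4.47 CPM in MMSET and 1.64 ± 0.865 CPM in MMSET-Ikk2ca (log2 fold change -2.99, adjusted p = 0.000449). It had 18.8 ± 5.82 CPM in Control(M) and 7.94 ± 2.39 in Ikk2ca(M). All 8 were called in all 28 alternative fits of this comparison. The labels do not say where the Ikk2ca or MMSET allele was inserted.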
